A study of Homo sapiens with 4 samples.

Results

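Chromosomes 4 and 18 carried 10284 of the 125986 accessible regions in the authors' deposited table, 7498 on chromosome 4 and 2786 on chromosome 18. They were chosen by the deposited log2 fold changes themselves: among the 22 autosomes they had the lowest medians, 0.16 on each. That value is therefore a description and was not tested. The nearest autosome outside the choice was chromosome 16, with a median of 0.19. The other 20 autosomes together held 111665 regions with a median of 0.24.

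Accessibility was measured by ATAC-seq in A375 cells, an established human melanoma line kept in DMEM with 10% serum. The 2 groups had 2 libraries each: cells kept for 48 h with octanoate at 1 mM, and cells kept as long with its vehicle, isopropanol. Octanoate is a fatty acid of medium chain length. The labels do not say whether the libraries came from separate cultures, so the deposited errors may describe technical spread only. The labels state an average of 40000000 to 50000000 paired-end reads a library, and the depth of each library is unknown here, since the table holds only a mean over the 4 libraries. This mean signal, in normalized reads, had a median of 12.2 over the nuclear regions. A log2 fold change is octanoate over vehicle throughout, and ± marks its deposited standard error (SE). Its zero depends on the authors' scaling: the median over all autosomal regions was 0.23, so a value below 0.23 is below the typical region even where it is positive.

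In ATAC-seq the transposase Tn5 inserts adapters where DNA is not covered by nucleosomes. Such maps are dominated by promoters at gene starts, which are open in most cell types and often rich in CpG, and distal elements inside or between genes, many of which are enhancers open only in some lineages. Gene-poor chromosomes carry long intervals without protein-coding genes, called gene deserts, in which distal elements can lie far from any gene. As a check of the labelled line, regions lay at the start (or, for a gene without a listed strand, at either end) of 5 of 8 melanocytic markers (SOX10, MITF, PMEL, DCT and S100B) and of 5 of 5 markers of undifferentiated melanoma. MLANA, TYR and TYRP1 had regions inside the gene only. By the same rule regions lay at 4 of 4 fibroblast, 2 of 4 haematopoietic, 1 of 4 keratinocyte and 0 of 4 endothelial markers. Cell makeup was not tested.

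The promoters at the extremes of the change on each chromosome show what sequence lay under these regions. For each chromosome, the 2 highest and 2 lowest deposited log2 fold changes were taken among tested regions (defined with the calls further on) that lay at a gene start and covered the whole window, 308 on chromosome 4 and 98 on chromosome 18. Each gene was taken once, by the window nearest the region's middle, so a second start region of TXNL4A, shared with RBFA (0.44 ± 0.14), is not shown. This choice was made after the values were seen. The windows are the 250 bases before the start, read 5′ to 3′ on the gene's strand, from RefSeq on GRCh38.p14. Capitals mark matches on either strand to GGGCGG (a GC box), CCAAT (the box of that name), CCGGAAG (an ETS core), TGANTCA (an AP-1 site), TATAAA (known as the TATA box) or TGACGTCA (a cyclic AMP response element).
SGMS2, chr4:107824682-107824931, plus strand, highest: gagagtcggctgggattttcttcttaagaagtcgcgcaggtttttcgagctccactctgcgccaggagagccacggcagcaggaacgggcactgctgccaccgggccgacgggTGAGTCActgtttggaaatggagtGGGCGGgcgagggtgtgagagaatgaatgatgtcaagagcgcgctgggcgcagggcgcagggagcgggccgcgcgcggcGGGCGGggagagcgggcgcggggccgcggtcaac
WFS1, chr4:6269600-6269849, plus strand, highest: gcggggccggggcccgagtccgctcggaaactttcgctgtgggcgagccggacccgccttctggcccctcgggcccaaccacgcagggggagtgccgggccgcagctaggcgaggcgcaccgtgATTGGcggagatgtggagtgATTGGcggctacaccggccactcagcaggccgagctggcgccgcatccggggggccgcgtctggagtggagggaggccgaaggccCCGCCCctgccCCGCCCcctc
C4orf36, chr4:86892423-86892672, minus strand, lowest: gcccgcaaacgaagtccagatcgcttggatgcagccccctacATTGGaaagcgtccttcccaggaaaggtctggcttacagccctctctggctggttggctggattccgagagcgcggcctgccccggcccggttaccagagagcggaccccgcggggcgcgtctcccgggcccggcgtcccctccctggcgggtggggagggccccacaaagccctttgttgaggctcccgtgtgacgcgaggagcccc
MOB1B, chr4:70902119-70902368, plus strand, lowest: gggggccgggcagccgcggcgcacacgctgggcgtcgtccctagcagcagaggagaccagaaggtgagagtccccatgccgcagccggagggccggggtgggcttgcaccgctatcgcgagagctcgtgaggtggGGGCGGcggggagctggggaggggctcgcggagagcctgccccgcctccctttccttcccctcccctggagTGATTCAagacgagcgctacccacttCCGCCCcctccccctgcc
TXNL4A, chr18:79988564-79988813, minus strand, highest: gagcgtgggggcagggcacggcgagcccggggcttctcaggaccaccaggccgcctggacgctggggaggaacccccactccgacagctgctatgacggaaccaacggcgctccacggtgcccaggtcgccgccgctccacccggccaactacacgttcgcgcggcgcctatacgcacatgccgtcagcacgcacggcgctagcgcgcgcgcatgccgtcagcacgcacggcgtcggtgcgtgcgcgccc
CTDP1, chr18:79679553-79679802, plus strand, highest: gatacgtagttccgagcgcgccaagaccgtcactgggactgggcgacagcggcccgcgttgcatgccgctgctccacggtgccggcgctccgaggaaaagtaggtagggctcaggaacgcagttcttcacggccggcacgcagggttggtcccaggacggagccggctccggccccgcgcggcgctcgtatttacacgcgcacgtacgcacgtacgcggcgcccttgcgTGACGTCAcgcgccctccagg
CDH2, chr18:28177131-28177380, minus strand, lowest: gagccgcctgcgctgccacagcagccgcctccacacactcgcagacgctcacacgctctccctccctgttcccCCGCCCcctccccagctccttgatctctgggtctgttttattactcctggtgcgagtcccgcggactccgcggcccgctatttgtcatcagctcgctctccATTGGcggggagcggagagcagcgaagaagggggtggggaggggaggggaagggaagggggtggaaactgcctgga
KCTD1, chr18:26548554-26548803, minus strand, lowest: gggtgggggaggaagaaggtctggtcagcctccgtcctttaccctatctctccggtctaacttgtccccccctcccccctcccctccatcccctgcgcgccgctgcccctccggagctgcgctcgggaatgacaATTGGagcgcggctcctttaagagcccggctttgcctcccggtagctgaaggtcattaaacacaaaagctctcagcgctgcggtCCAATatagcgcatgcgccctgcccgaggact

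Above these sequences the deposited log2 fold changes were 0.58 ± 0.24 at SGMS2, which makes sphingomyelin, and 0.54 ± 0.20 at WFS1, a protein of the endoplasmic reticulum membrane. They were 0.54 ± 0.22 at TXNL4A, a component of the spliceosome, and 0.44 ± 0.15 at CTDP1, which removes phosphates from the tail of RNA polymerase II. The lowest were -0.25 ± 0.26 at C4orf36, -0.24 ± 0.20 at MOB1B, a coactivator of Hippo pathway kinases, -0.27 ± 0.16 at CDH2, which encodes N-cadherin, and -0.26 ± 0.23 at KCTD1, a repressor of AP-2 factors. None of the 8 passed the deposited adjusted p of 0.05 (0.0952 to 0.677). All 8 windows were rich in G and C, from 62.8% at KCTD1 to 75.2% at WFS1. The CpG count ran from 17 at CDH2 and KCTD1 to 38 at CTDP1. GC boxes stood in SGMS2, WFS1 and MOB1B (2 each) and in CDH2 (1), so on both sides of the change. CCAAT boxes stood in WFS1 and KCTD1 (2 each) and in C4orf36 and CDH2 (1 each). SGMS2 and MOB1B each had 1 AP-1 match, CTDP1 had 1 cyclic AMP response element, and TXNL4A had none of the 6.

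Over all 22054 promoter windows of this length, 53.7% held a GC box, against 51.2% of the 965 windows on chromosome 4 and 52.2% of the 364 on chromosome 18. A CCAAT box was in 32.7% of all windows, 30.8% on chromosome 4 and 26.4% on chromosome 18. The ETS core was in 10.6%, 8.39% and 7.69% in the same order. The AP-1 site was in 5.36%, 6.22% and 6.87%, the TATA box in 9.03%, 11.0% and 9.89%, and the cyclic AMP response element in 2.004%, 3.42% and 3.57%. A match is a run of letters, not a bound site. When regions at gene starts were grouped by the G and C content of their window, chromosome 4 had medians of 0.06 below 61.2%, 0.09 from there to 70.4% and 0.08 above. Chromosome 18 had 0.02, 0.04 and 0.05, and the other autosomes 0.14 in each group. So in these 3 groups the medians of both chromosomes lay below those of the other autosomes.

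The regions of the chosen chromosomes had a lower centre and a somewhat wider spread than those of the other autosomes pooled. On chromosome 4 the quartiles of the log2 fold change were -0.12 and 0.46, and on chromosome 18 they were -0.15 and 0.49. On the other autosomes they were -0.03 and 0.52. The 5th and 95th percentiles of both chromosomes together were -0.72 and 1.03, against -0.60 and 1.06 on the other autosomes. A log2 fold change above 0 was found in 65.7% of regions on chromosome 4 and 64.4% on chromosome 18, against 72.8% on the other autosomes. Among those, the lowest share was 70.0% on chromosome 6 and the highest 79.9% on chromosome 15, whose median was also the highest (0.31).

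**Figure D1:**
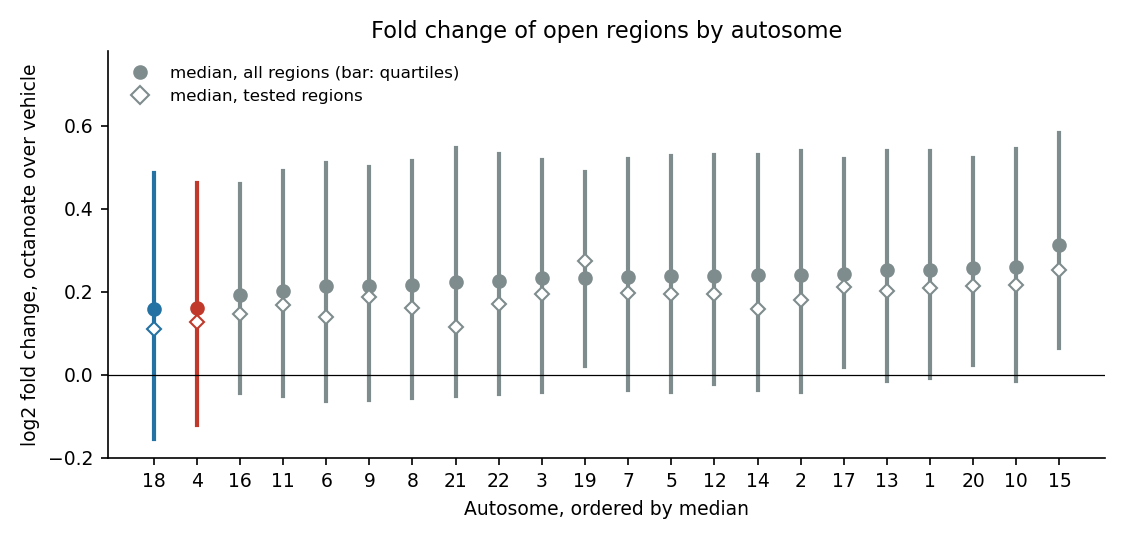
Median deposited log2 fold change of octanoate over vehicle for each autosome, with bars from the lower to the upper quartile of its regions (not an error over libraries) and open diamonds for the median of tested regions. Chromosomes 18 and 4, both at 0.16, sit lowest, chromosome 16 follows at 0.19 and chromosome 15 is highest at 0.31.

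Among measures that played no role in the choice, genes per Mb were toward the low end of the other autosomes' range on both chromosomes, and the density and strength of regions on chromosome 4 were within that range. Chromosome 18 had 3.36 protein-coding genes per Mb and chromosome 4 had 4.04, while the other autosomes ran from 2.96 on chromosome 13 to 24.8 on chromosome 19. Chromosome 13, poorer still in genes, had a median log2 fold change of 0.25. Regions were spaced at 39.4 per Mb on chromosome 4 and 34.7 on chromosome 18, while the other autosomes ran from 20.3 on chromosome 21 to 54.2 on chromosome 1, with a median of 42.4. The median mean signal was 11.1 on chromosome 4 and 9.75 on chromosome 18, against 12.4 over all regions of the other autosomes. The value on chromosome 18 was below that of every other autosome, the lowest of which was 10.0 on chromosome 21. The median SE was 0.640 on chromosome 4 and 0.683 on chromosome 18, against 0.604 elsewhere. Gene deserts, here over 200 kb from the nearest protein-coding gene, held 22.8% of the regions of chromosome 4 and 17.1% of those of chromosome 18, against 12.4% on the other autosomes. Regions at gene ends made up 8.98% and 9.19%, against 13.3%.

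In a comparison added after the values were seen, the other autosomes were given the same mix of distance classes and signal strengths. Their median then became 0.24 for either chromosome's mix, and the difference was -0.08 for chromosome 4 and -0.08 for chromosome 18. Without that matching it was -0.08 for both as well. These are the fold changes that chose the chromosomes, and the part of the makeup in them was not tested. In 10 equal classes of mean signal, chromosome 4 was below the other autosomes in 10 of 10 and chromosome 18 in 9 of 10. For chromosome 4 the gap was largest in the weakest class, where its median was 0.16 and that of the other autosomes 0.34. Chromosome 18 was close to the others in the 2 weakest classes, with 0.33 against 0.34 and 0.31 against 0.31. Its gap was largest in the eighth class (mean signal 21.7 to 32.8), with 0.08 against 0.24. In the strongest class the medians were 0.13 on chromosome 4, 0.10 on chromosome 18 and 0.19 elsewhere. The low centre of both chromosomes was thus seen among strong regions too, while in the weakest regions it was seen on chromosome 4 only.

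**Figure D2:**
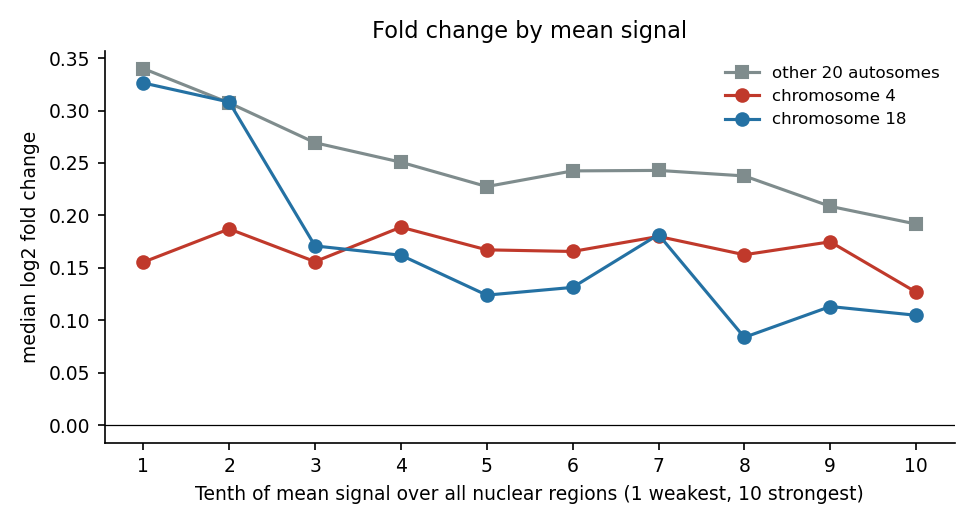
Median deposited log2 fold change in 10 equal classes of mean signal, from the weakest to the strongest, for chromosome 4, chromosome 18 and the other autosomes. Chromosome 4 lies below the other autosomes in all 10 classes, and chromosome 18 meets them in the 2 weakest.

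Distance to protein-coding genes divided the regions into 8 classes. Regions at gene starts had lower values than those inside or outside genes. Within 1 kb of a start the median was 0.08 over 552 regions on chromosome 4, 0.04 over 209 on chromosome 18 and 0.14 over 10796 on the other autosomes. Inside genes, over 1 kb from either end, the medians were 0.17 (2598 regions), 0.17 (1068) and 0.26 (42785). In gene deserts they were 0.15 (1711 regions), 0.16 (476) and 0.25 (13843). Both chromosomes were below the other autosomes in 8 of 8 classes, and in 5 of 8 each was below the lowest single one of them. Over tested regions alone, chromosome 4 was below in 7 of 8 classes and chromosome 18 in 4 of 8, with 0.32 against 0.24 at 1 to 10 kb (2 tested regions) and 0.31 against 0.26 at 10 to 50 kb (7 tested regions).

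Outside genes, chromosomes 4 and 18 had their highest medians at 10 to 50 kb from a gene, 0.23 on each against 0.27 elsewhere, where the gap was -0.04 on both. Nearer, at 1 to 10 kb, medians were 0.21 on chromosome 4 and 0.20 on chromosome 18, against 0.28. Farther, at 50 to 200 kb, they were 0.19 and 0.18, against 0.26. Both chromosomes therefore had lower medians in their deserts than at 10 to 50 kb, by more than the other autosomes did (0.25 against 0.27). The downstream ends of genes were sparse: 62 regions on chromosome 4 had a median of 0.06, 21 on chromosome 18 had 0.20, and the other autosomes had 0.25. Ends of genes that the reference lists without strand, where start and end cannot be told apart, had medians of 0.04, 0.04 and 0.13. Whether depth or region strength set these class differences was not tested; the median mean signal was 73.3 at gene starts and 9.20 in deserts on chromosome 4.

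**Figure D3:**
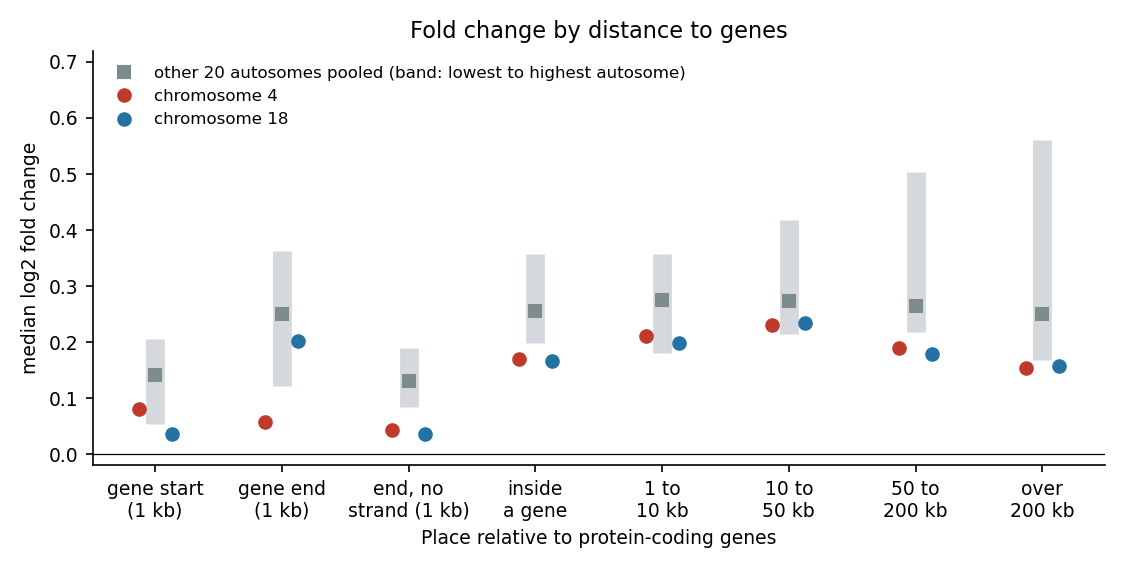
Median deposited log2 fold change by distance to protein-coding genes for chromosome 4 (red), chromosome 18 (blue) and the other autosomes pooled (grey squares), with a band from the lowest to the highest single one of these. Both chromosomes lie below the grey squares in all 8 classes, and gene starts are low in all 3 sets (0.08, 0.04 and 0.14).

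Inside genes, the length of the gene made little difference to the medians. On chromosome 4 they were 0.18 in genes under 100 kb, 0.16 in those of 100 to 500 kb and 0.19 in longer ones. On chromosome 18 they were 0.13, 0.18 and 0.17, and on the other autosomes 0.26, 0.25 and 0.26. Genes with at least 30 regions each can be described one by one. On chromosome 18 these were FHOD3 (median 0.06), a formin that builds actin filaments, the urea transporter gene SLC14A2 (0.07), the RNA-binding factor CELF4 (0.07), the receptor phosphatase PTPRM (0.13), the postsynaptic scaffold DLGAP1 (0.21) and the ubiquitin ligase NEDD4L (0.25). On chromosome 4 the actin-associated PALLD had 0.10. PPARGC1A, a coactivator of mitochondrial genes, had 0.12, and both CCSER1 and the Notch coactivator MAML3 had 0.14. MARCHF1, a ubiquitin ligase, had 0.16 and the glycosyltransferase-family gene GALNTL6 had 0.17. The cell-adhesion gene TENM3 and the potassium channel partner KCNIP4 had 0.18 each. The 183 such genes on the other autosomes had a median of 0.25, with quartiles of 0.16 and 0.35, so several of the named genes lay within those quartiles and NEDD4L close to the median.

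In steps of 5 Mb, low values were found in most steps of both chromosomes. The steps hold the fold changes that chose the chromosomes, so this is a description and was not tested. Of 38 steps on chromosome 4 with at least 20 regions, 32 (84.2%) lay below 0.22, the median of the 507 steps of the other autosomes. On chromosome 18 this held for 11 of 15 (73.3%). Step medians ran from 0.00 to 0.34 on chromosome 4 and from -0.08 to 0.38 on chromosome 18. The 5th and 95th percentiles of the other autosomes' steps were 0.06 and 0.41. Below that 5th percentile lay 4 steps of chromosome 4 and 3 of chromosome 18, and above the 95th lay 0 of either. The step from 25 to 30 Mb of chromosome 18, at -0.08, was below the lowest step of the other autosomes (-0.05). The SD over steps was 0.0762 on chromosome 4, 0.121 on chromosome 18 and 0.105 on the others.

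Along chromosome 4 the short-arm end was high, with 0.30 in the first 5 Mb and 0.34 in the next. From 10 to 120 Mb all 22 steps stayed below the others' step median, and their 3952 regions had a median of 0.11. Within this run the values declined from 0.22 at 10 to 15 Mb through 0.09 at 25 to 30 Mb to 0.05 at 35 to 40 Mb, were 0.14 at 45 to 50 Mb and reached 0.02 and 0.00 between 65 and 75 Mb. The steps from 75 to 120 Mb lay between 0.09 and 0.19. After 0.24 and 0.34 between 120 and 130 Mb, the rest of the long arm stayed between 0.14 and 0.24. Chromosome 18 alternated more: 0.14 in its first step, 0.27 at 10 to 15 Mb, then a run of 6 low steps from 20 to 50 Mb with a median of 0.06 over 1036 regions. It had 0.28 at 50 to 55 Mb, 0.06 to 0.10 between 55 and 70 Mb, 0.27 at 70 to 75 Mb and 0.38 at 75 to 80 Mb. The short arms had medians of 0.18 (4p) and 0.21 (18p) and the long arms 0.16 (4q) and 0.14 (18q).

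The 4 chromosome ends had medians above the interior of their own chromosome as a whole, 4q and 18p by little. The 18p end lay below the rest of its own arm, with 0.14 against 0.24. Within 5 Mb of an end the median was 0.30 at 4p (184 regions), 0.17 at 4q (259), 0.14 at 18p (196) and 0.40 at 18q (244), against 0.34 over the ends of the other autosomes. So 4p and 18q were near the level of other chromosome ends, and 4q and 18p were lower. Away from the ends the medians were 0.16 on chromosome 4 and 0.14 on chromosome 18, against 0.23 elsewhere and 0.19 on the lowest other autosome, chromosome 11.

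The 3 lowest steps of each chromosome were chosen by their medians, so low values of their regions follow from that choice. Tested regions below 0 numbered 9 of 10, 2 of 5 and 8 of 20 in those of chromosome 4. Over the whole of chromosome 4, 414 of 542 tested regions (76.4%) were above 0. At 70 to 75 Mb (195 regions, median 0.00), all 10 tested regions lay at gene starts. They ran from -0.24 ± 0.20 at MOB1B and -0.21 ± 0.19 at UTP3, a factor in ribosomal RNA processing, through -0.12 ± 0.17 at ADAMTS3, a procollagen protease, to 0.02 ± 0.18 at COX18, which helps assemble cytochrome oxidase. Gene starts and ends together, gene bodies and intergenic regions of this step had medians of -0.04, 0.02 and 0.02. At 65 to 70 Mb (134 regions, median 0.02) the tested starts were CENPC, a centromere protein (-0.01 ± 0.19), UBA6, a ubiquitin-activating enzyme (0.03 ± 0.20), EPHA5, an ephrin receptor (0.05 ± 0.23), and YTHDC1, a reader of methylated RNA (-0.17 ± 0.20). At 35 to 40 Mb (180 regions, median 0.05) the 11 regions of ARAP2, a GTPase-activating protein, had a median of -0.30 and the 14 of RELL1 had 0.21, while tested starts included RPL9 (-0.19 ± 0.26), UGDH (0.14 ± 0.18) and WDR19 (0.11 ± 0.20).

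The 3 lowest steps of chromosome 18 lay between 25 and 45 Mb. At 25 to 30 Mb (137 regions, median -0.08) the intergenic regions had a median of -0.14. CDH2 had -0.27 ± 0.16 at its start but 0.05 over its 11 regions. TAF4B, a subunit of the general factor TFIID, had 0.12 ± 0.21 at its start and -0.40 over its 9 regions. At 40 to 45 Mb (153 regions, median 0.01), where 51.0% of regions were in a desert, the 18 regions of SETBP1, a SET-binding nuclear protein, had a median of -0.02. The 6 of PIK3C3, the class III phosphoinositide 3-kinase of autophagy, had -0.14. At 30 to 35 Mb (170 regions, median 0.02) the 11 regions of NOL4 had -0.38 and the 22 of DTNA, a dystrophin-associated protein, had 0.10.

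The 3 highest steps of each chromosome were chosen by their medians, so the values of their regions are a description. Over both chromosomes 76.2% of tested regions were above 0, and 86.2% on the other autosomes. At 0 to 5 Mb of chromosome 4 all 24 tested regions were above 0 (0.08 to 0.98), and the huntingtin gene HTT had 0.31 ± 0.19 at its start and 0.48 over 5 regions. At 5 to 10 Mb all 19 were above 0 (0.05 to 0.77). There, SORCS2, a sorting receptor of neurons, had a median of 0.56 over 26 regions and PPP2R2C, a regulatory subunit of protein phosphatase 2A, had 0.56 over 11, while AFAP1, an actin-binding protein, had -0.01 over 17. At 125 to 130 Mb all 11 were above 0 (0.07 to 0.42), among them the starts of JADE1, part of a histone acetyltransferase complex (0.17 ± 0.13), and LARP1B, an RNA-binding protein (0.15 ± 0.15). At 75 to 80 Mb of chromosome 18 all 18 were above 0 (0.07 to 0.74), and the 10 regions of ATP9B had a median of 0.77, beside 0.25 for the 18 of MBP, which encodes myelin basic protein, and 0.17 for the 10 of the transcription factor gene NFATC1. At 50 to 55 Mb, where 13 of 15 tested regions were above 0, MAPK4, an atypical kinase, had 0.47 over 13 regions and the motor gene MYO5B 0.41 over 8. At 10 to 15 Mb, with all 9 above 0, LDLRAD4 and the G-protein gene GNAL had 0.37 each, and the mechanosensitive channel gene PIEZO2 had -0.10 over 8 regions.

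Calls of single regions come from the authors' DESeq2 Wald test. Its deposited adjusted p, by Benjamini-Hochberg adjustment, covered the 11185 regions with a mean signal of at least 63.8, here called tested regions. On chromosome 4 there were 542 (7.23% of its regions), on chromosome 18 there were 156 (5.60%), and on the other autosomes 9.13% of regions were tested. Over all tested regions, 114 (1.02%) had an adjusted p under 0.05. On chromosomes 4 and 18 these were 7 of 698, all higher after octanoate, 6 on chromosome 4 and 1 on chromosome 18. Before adjustment, a p under 0.05 with a higher value was found in 14.8% of all tested regions, in 38 (7.01%) on chromosome 4 and in 15 (9.62%) on chromosome 18. A p under 0.05 with a lower value was found in 0.107% of all tested regions and in 0 of these 698. These counts rest on the fold changes that chose the chromosomes. The medians of tested regions were 0.13 on chromosome 4, 0.11 on chromosome 18 and 0.19 on the other autosomes. Among tested regions chromosome 21, also at 0.11, came between the pair.

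After the median of all tested regions (0.19) was subtracted from each deposited log2 fold change, the balance shifted. An unadjusted p under 0.05 was then found on the higher side in 13 of the 698 regions (1.86%), against 3.16% of all tested regions. On the lower side there were 12 (1.72%), against 1.01% of all. The chromosomes were chosen for their low fold changes, so this contrast follows from the choice. None of the 698 had an adjusted p under 0.05 then, against 0.0536% of all. The 7 calls thus depend on where the zero of the scale is placed, as did calls elsewhere. On the other autosomes 105 calls became 6.

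The 7 called regions lay away from gene starts. In order along chromosome 4, FAM53A held 1 inside the gene (chr4:1579259-1581474), with a deposited log2 fold change of 0.98 ± 0.26 at a mean signal of 66.3 and an adjusted p of 0.0248. Farther along the same arm, chr4:9151990-9154189 had 0.53 ± 0.14 at a mean signal of 236 (adjusted p 0.0259). This region overlaps the pseudogene FAM86KP, 16.2 kb from FAM90A26, with 23 genes of the USP17L family of deubiquitinases within 300 kb. Reads of such near-identical copies may not be assigned to 1 place, so its value is uncertain. At chr4:9691155-9692163, 0.934 kb from the related pseudogene FAM86MP and 78.9 kb from the urate transporter gene SLC2A9, the value was 0.77 ± 0.20 at a mean signal of 113 (adjusted p 0.0210). No USP17L gene lay within 300 kb of it. Whether its reads could be assigned to 1 place was not tested, so this value may be uncertain too.

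The largest of the called values on either chromosome was 1.11 ± 0.26 at chr4:48909574-48910173, 2.75 kb from OCIAD2, at a mean signal of 65.3 (adjusted p 0.00892). It was also the 1 call between 10 and 120 Mb of chromosome 4. Toward the long-arm end, SNX25, a sorting nexin of endosomes, held a region inside the gene (chr4:185304958-185307457) with 0.66 ± 0.18 at 141 (adjusted p 0.0344). The widest, 10596 bases at chr4:188399888-188410483, lay 249 kb from TRIML1, a gene of the TRIM-like family, and had 0.40 ± 0.11 at 504 (adjusted p 0.0277). On chromosome 18 the called region lay inside ATP9B, a P4-type ATPase of the Golgi network (chr18:79245333-79246969), with 0.74 ± 0.16 at 210 and an adjusted p of 0.00139. Of the 7, 4 lay within 5 Mb of a chromosome end, where chromosome 4 had 50 tested regions and chromosome 18 had 32. On the other autosomes 40 of 105 calls lay there, as did 894 of 10199 tested regions. At gene starts 0 of 311 tested regions of chromosome 4 and 0 of 101 of chromosome 18 were called, and calls at starts were also rare on the other autosomes (16 of 5092).

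**Figure D4:**
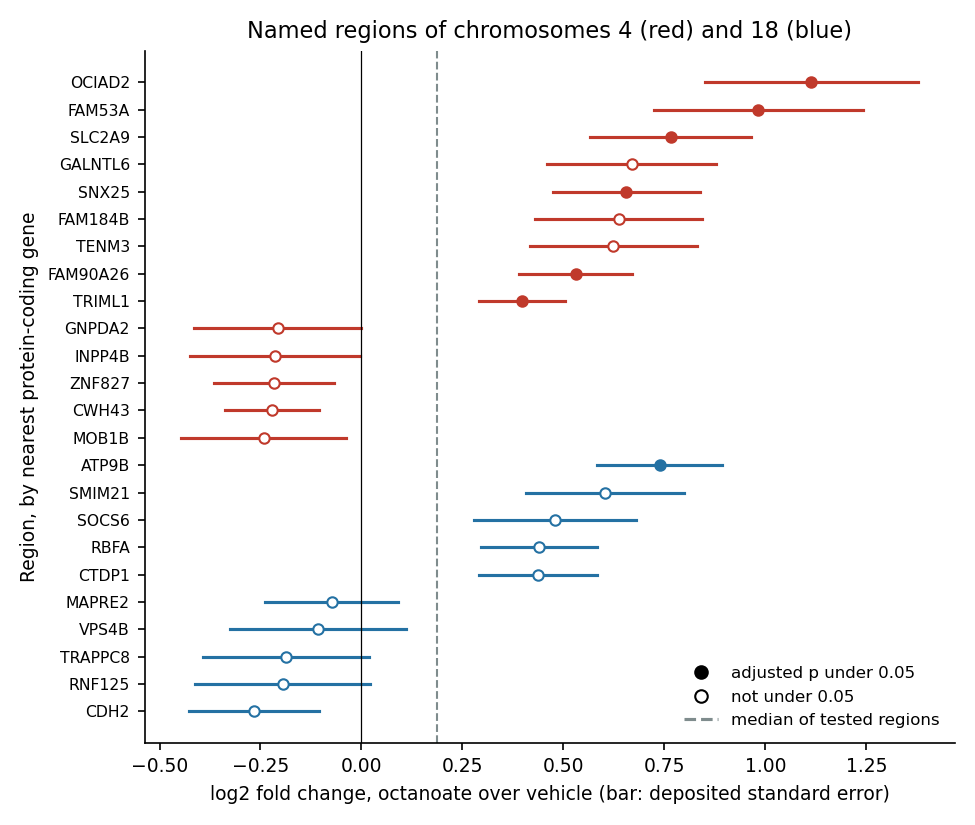
Deposited log2 fold change with its standard error for the regions of chromosomes 4 and 18 past the adjusted p of 0.05 and for the strong tested regions highest and lowest on each. The called regions run from 0.40 near TRIML1 to 1.11 near OCIAD2, and the lowest open point is -0.27 at CDH2. Filled points have an adjusted p under 0.05, and the dashed line is the median of all tested regions (0.19).

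Strong tested regions, those with a mean signal of at least 96.5, numbered 283 on chromosome 4 and 76 on chromosome 18. Beside the called regions near SLC2A9 and in SNX25, the 5 highest on chromosome 4 included those inside GALNTL6 (0.67 ± 0.21), FAM184B (0.64 ± 0.21) and TENM3 (0.62 ± 0.21), with adjusted p from 0.0728 to 0.0943. On chromosome 18, after ATP9B, they were at the end of SMIM21 (0.60 ± 0.20, adjusted p 0.0856), 53.9 kb from SOCS6, a suppressor of cytokine signalling (0.48 ± 0.20), and at the starts of RBFA, a mitochondrial ribosome assembly factor, shared with TXNL4A (0.44 ± 0.14), and of CTDP1. The lowest on chromosome 4 were MOB1B, a region at the edge of the centromeric gap (chr4:49709075-49712047, -0.22 ± 0.12, mean signal 497), an end of the zinc-finger gene ZNF827 (-0.22 ± 0.15), and the starts of INPP4B, a phosphoinositide phosphatase (-0.21 ± 0.21), and GNPDA2, an enzyme of amino sugar breakdown (-0.21 ± 0.21). The lowest on chromosome 18 were CDH2, the ubiquitin ligase gene RNF125 (-0.20 ± 0.22), TRAPPC8 of a vesicle-tethering complex (-0.19 ± 0.21), the ESCRT ATPase gene VPS4B (-0.11 ± 0.22) and the microtubule-binding MAPRE2 (-0.07 ± 0.17). None of these 10 low values passed the threshold, with adjusted p from 0.347 to 0.868.

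Gene groups located on these chromosomes gave 0 called regions in each of 9 lists, beside 1.02% over all tested regions. Growth factors and receptor kinases (14 genes, 57 regions, 5 tested) had a median of 0.12. In this group KIT, the receptor kinase that melanocyte precursors need, had -0.31 ± 0.30 at its start, a region below the tested signal. The PDGF receptor gene PDGFRA had 0.14 ± 0.18, and the ligand genes PDGFC and VEGFC had 0.19 ± 0.20 and 0.12 ± 0.23. FGF2, a growth factor used by melanoma cells, had -0.19 ± 0.27 at its start and a median of 0.51 over its 6 regions. TGF-beta and BMP signalling genes (7 genes, 51 regions, 6 tested) had 0.12 as well. At their starts the receptor-regulated SMAD1 had -0.13 ± 0.20 and SMAD2 0.14 ± 0.17, the common partner SMAD4 -0.05 ± 0.19, the inhibitor SMAD7 0.10 ± 0.24 and the corepressor TGIF1 0.04 ± 0.14.

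Lipid and fatty acid genes, the class to which the metabolism of octanoate belongs, had a median of 0.12 over 111 regions of 19 genes, 15 of them tested. In order of their place in the pathway, ACSL1, which activates long-chain fatty acids, had 0.05 ± 0.21 at its start and a median of 0.45 over its 6 regions. The beta-oxidation enzymes HADH and ACAA2 had 0.04 ± 0.23 and -0.17 ± 0.25, and ETFDH, which passes electrons from the acyl-CoA dehydrogenases of this pathway to ubiquinone, had 0.08 ± 0.14. PPARGC1A had 0.12 ± 0.24 at its start, equal to the median of its 37 regions. ELOVL6, which lengthens fatty acids, had -0.16 ± 0.21 at its start, with a median of 0.69 over 8 regions. The omega-hydroxylase gene CYP4V2 had 0.22 ± 0.17. The low value at UCP1, which uncouples respiration, was -1.90 ± 1.42 at a mean signal of 3.04, too weak to be tested. The gene FABP2 had no region.

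Neural crest and pigment cell genes (11 genes, 59 regions, 6 tested) had a median of 0.05. LEF1, a factor of Wnt signalling, had -0.23 ± 0.22 at its start and a median of -0.23 over 9 regions, TCF4, a basic helix-loop-helix factor, had -0.03 ± 0.24 and 0.05 over 23, and the homeobox gene MSX1 had 0.21 ± 0.21. HAND2, a factor of sympathetic neuron and heart development, had 0.38 ± 0.24, the highest of the 6 tested regions. Cadherin superfamily genes (15 of 16 with a region, 90 regions, 8 tested) had the lowest median of the lists, 0.01. Beside CDH2, the glial and melanocytic cadherin gene CDH19 had -0.18 ± 0.25, the protocadherin genes PCDH7 and PCDH10 had -0.13 ± 0.12 and 0.10 ± 0.12, and FAT1 and FAT4, which encode giant cadherins, had 0.00 ± 0.13 and 0.25 ± 0.15. Neuronal genes (16 genes, 239 regions, 15 tested) had a median of 0.09. Among them the adhesion receptor gene ADGRL3 had -0.04 ± 0.17, the guidance cue SLIT2 had -0.01 ± 0.16 and the netrin receptor gene UNC5C had -0.19 ± 0.26 at the start.

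Cell cycle and apoptosis genes (10 genes, 27 regions, 10 tested) had a median of 0.10. The starts of CCNA2, a cyclin of S phase, and TYMS, which makes thymidylate, had -0.07 ± 0.22 and -0.17 ± 0.22. The antiapoptotic BCL2 had -0.10 ± 0.26 and the proapoptotic PMAIP1 had 0.00 ± 0.21. Housekeeping genes (19 genes, 36 regions, 18 tested) had 0.07, and the 2 regions with an unadjusted p under 0.05 were both at TXNL4A. The ribosomal protein gene RPL9 had -0.19 ± 0.26, the histone variant gene H2AZ1 0.07 ± 0.15 and the ATP synthase gene ATP5ME 0.38 ± 0.26. The purine synthesis genes PAICS and PPAT share 1 start region, with 0.02 ± 0.13. Clustered tissue genes, such as the glucuronosyltransferases, caseins, alcohol dehydrogenases and serpins, had a region in 13 of 25, and 4 were open at the start. ALB, the caseins CSN1S1, CSN2 and CSN3, and ADH1A, ADH1B and ADH1C had no region. The 24 regions of this list had the highest median, 0.29, with 1 tested. The medians of the other 8 lists ran from 0.01 to 0.12, beside 0.16 over all regions of each chromosome. The lists hold regions inside genes or within 1 kb of them, while all regions include those outside genes. At gene starts the medians were 0.08 on chromosome 4 and 0.04 on chromosome 18, and inside genes 0.17 on each. The part of this makeup in the difference was not tested.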

How the data were processed

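The authors deposited 1 table of octanoate against vehicle with 0 columns per library; per the submitters' processing notes, hg38, Bowtie2, MACS2, featureCounts, DESeq2 and bedtools 2.29.1 were among the build and tools used. Any Tn5 shift, the merging of regions and the scaling are not given in the sources used here. Per the file headers, the signal is the mean normalized read count. The deposited log2 fold change, its SE, the score (Wald statistic) and the p-value were used as they stand. The score equalled the log2 fold change divided by its SE within 2.31e-14, and the deposited adjusted p equalled Benjamini-Hochberg adjustment over 11185 regions. The other 114801 were listed as 1 and treated as not tested.

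Medians, quartiles and counts were computed with pandas 2.3.3 and the calculation was tested on simulated data. Genes (20033 protein-coding, 15841 with strand) and promoter windows came from RefSeq, GRCh38.p14. Coordinates count from 1. A region took the gene it overlapped, otherwise the nearest. Genes of chromosome 8 have no strand in that table, so their ends form part of the class without strand.

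Named were all regions past the threshold, and on each chromosome the 5 highest and 5 lowest strong tested regions (1 per gene) and the 3 highest and 3 lowest steps. For the listed genes, the region of highest signal at the start was named, or otherwise inside the gene; some further starts within named steps, the genes with at least 30 regions and the printed promoters were chosen after their values were seen. A gene with at least 30 regions is not reported here. The members and lists were chosen with earlier results of these data known.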

Additional observations from a re-analysis of the deposited data

How the results depend on the processing

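No paired analysis was possible because only means over all libraries are listed, and leaving out each library, a replicate block and other scalings of the reads were not run for the same reason. Against 0.24 on all regions of the other autosomes, the difference was -0.075 for chromosome 4 and -0.077 for chromosome 18. For chromosome 4 it became -0.065 over tested regions, -0.063 over regions with a signal at or above the median, -0.065 with means weighted by the inverse squared SE and -0.071 without regions within 5 Mb of an end. For chromosome 18 it became -0.093 with the signal minimum, -0.074 with plain means and -0.091 without the ends. The level of chromosome 4 moved to 0.127 over tested regions and 0.154 with weighted means. That of chromosome 18 moved to 0.110 over tested regions, 0.126 with the signal minimum, 0.165 with plain means, 0.142 with weighted means and 0.136 without the ends. Centring on the median of all autosomal regions turned the signs, to -0.069 and -0.071, by its construction. Matching on distance class and signal, chosen after seeing the data, left both differences between -0.079 and -0.085. The 7 calls became 14 at an adjusted p under 0.1, 2 under 0.01, 1 with at least a doubling, 1 with adjustment over all nuclear regions and 0 after centring. Steps below the others' median kept a share of 78.7% to 89.5% on chromosome 4 and 68.8% to 76.5% on chromosome 18 under other step sizes, a shift and other minimum numbers of regions. Over tested regions alone, chromosome 18 was below the other autosomes in 4 of 8 distance classes and chromosome 4 in 7; the cause was not tested, and chromosome 18 had 1 to 21 tested regions in 7 of those classes.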
